A study of Homo sapiens with 15 samples.

Results

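HEK293T cells labelled PUS7KO were compared with HEK293T cells labelled Ctrl, as 3 libraries against 3, across all genes of the deposited count table. These 6 libraries, out of 15 in the series, were taken by their genotype label. HEK293T is a human embryonic kidney line that carries a viral large T antigen. PUS7KO stands for cells in which PUS7 was knocked out with CRISPR-Cas9, and Ctrl for the control cells, whose own treatment the labels do not describe. All cells grew in the same serum-containing medium with penicillin and streptomycin. The labels do not say whether a knockout was 1 clone or a pool of edited cells, nor whether replicates came from separate cultures. The p-values therefore measure only the spread between these libraries, which may be technical. The 3 HEK293T libraries labelled SNRPD2KO, with a CRISPR-Cas9 knockout of the spliceosomal protein gene SNRPD2, served as a second reference, since SNRPD2 RNA went against the group labels.

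PUS7 is a pseudouridine synthase, an enzyme that turns chosen uridines of tRNA, mRNA and other RNAs into pseudouridine. It works without a guide RNA and recognizes a short sequence around the target uridine, whereas the H/ACA particles find their uridines with a small guide RNA. Pseudouridine is abundant in the RNAs of the translation and splicing machinery. The integrated stress response, which recurs below, is a pathway in which kinases slow translation initiation while the transcription factor ATF4 is made and switches on genes for amino acid supply.

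Total RNA depleted of ribosomal RNA was sequenced, and total counts ran from 10022912 to 11181703 in PUS7KO and from 7944276 to 9202622 in Ctrl. At that depth 15882 of 62703 listed genes could be tested. PUS7KO libraries had counts on 26626 to 27460 genes and Ctrl libraries on 29551 to 30073. Small noncoding RNA took 28.2% to 33.7% of the counts in these 6 libraries. On the first principal component, which held 60.8% of the variance, PUS7KO and SNRPD2KO libraries lay together and apart from Ctrl. The 10 markers listed for HEK293T cells summed to 1149 to 1187 CPM in PUS7KO and to 1184 to 1489 CPM in Ctrl. These sums are counts scaled for library size only, whereas CPM of single genes below are scaled for library size and composition. On the same scale as the HEK293T sums, the 6 fibroblast markers summed to 11.4 to 13.5 in PUS7KO, 6.85 to 7.55 in Ctrl and 8.63 to 13.8 in SNRPD2KO. In each library 1 or 2 of the 6 were at 0, and 2 of the 6 could be tested.

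PUS7 RNA was lower in the knockout but was not lost. PUS7 (ENSG00000091127.14, hg38 chromosome 7, 105439661 to 105522271, minus strand) stood at 13.7, 18.1 and 16.3 CPM in the 3 PUS7KO libraries and at 26.5, 26.03 and 27.05 CPM in Ctrl. The highest PUS7KO library lay below every Ctrl library. The log2 fold change, PUS7KO minus Ctrl, was -0.72 with a standard error (SE) of 0.11 (edgeR quasi-likelihood test, adjusted p = 6.7e-05). In the SNRPD2KO libraries PUS7 stood at 31.1, 31.3 and 32.8 CPM, a log2 difference of -0.98 (SE 0.11, adjusted p = 0.0018). PUS7 had the smallest p-value of all 15882 genes between PUS7KO and SNRPD2KO, and ranked 1855 between PUS7KO and Ctrl. In RNA from whole cultures, fewer cells with a transcript and less of it per cell cannot be told apart, and PUS7 protein was not measured.

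SNRPD2, the gene targeted in the second reference, was not lower there. SNRPD2 (ENSG00000125743.11, chromosome 19, 45687460 to 45692569) stood at 309, 286 and 246 CPM in the libraries labelled SNRPD2KO, at 196, 169 and 182 CPM in those labelled Ctrl, and at 266, 236 and 279.6 CPM in PUS7KO. Its level in PUS7KO exceeded that in the libraries labelled Ctrl by 0.52 on the log2 scale (adjusted p = 0.00034), and did not pass the test against those labelled SNRPD2KO (-0.11, adjusted p = 0.56). The deposited column names start with C for the libraries labelled SNRPD2KO, with S for those labelled Ctrl and with P for PUS7KO. Whether the labels SNRPD2KO and Ctrl were exchanged was not tested and cannot be settled from these counts. Differences from Ctrl are therefore joined by those from SNRPD2KO for many of the lists and genes below. A single difference that names no reference is from Ctrl. The 2 differences share the PUS7KO libraries and are not independent of each other.

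**Figure D1:**
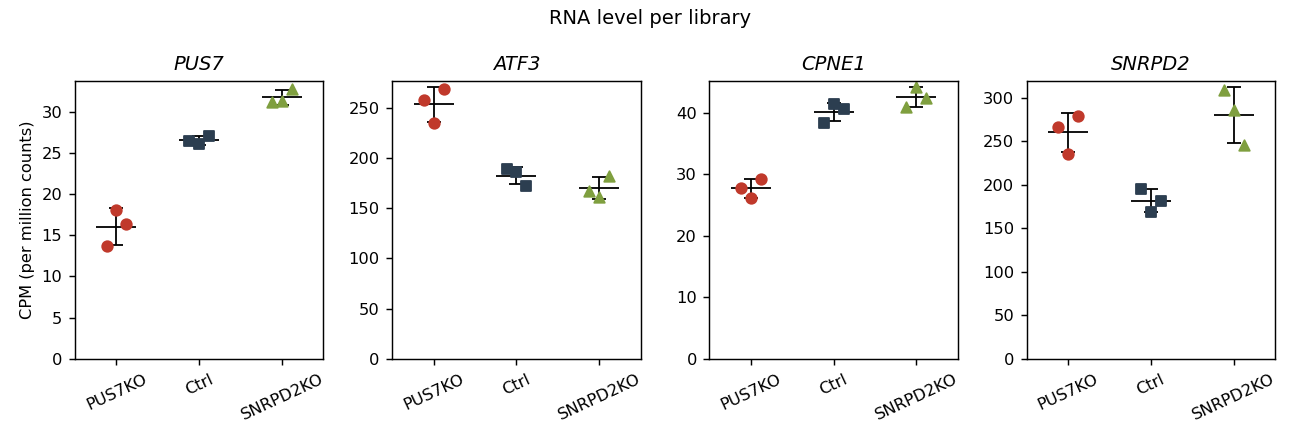
CPM of PUS7, ATF3, CPNE1 and SNRPD2 in each HEK293T library (points, 3 per group) with the group mean and SD. PUS7 was lower in all 3 PUS7KO libraries than in any of the other 6, ATF3 and CPNE1 (both described below) also stood apart in PUS7KO, and SNRPD2 was lowest in the 3 libraries labelled Ctrl.

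Of the genes tested, 4063 were higher in PUS7KO than in Ctrl (25.6%) and 3776 were lower (23.8%), at an adjusted p under 0.05. Against SNRPD2KO, 509 were higher (3.20%) and 249 lower (1.57%). Genes that were higher than in both references numbered 117 (0.737%), and 86 were lower than in both (0.541%). The PUS7KO values did not overlap those of Ctrl for 57.2% of tested genes, nor those of SNRPD2KO for 25.2%. These shares and those of the calls above are the background for the single genes and lists below. The median log2 difference over all genes was 0.01 against Ctrl and -0.01 against SNRPD2KO. Over 2-fold, 1112 genes were higher and 1204 lower against Ctrl, but 34 higher and 20 lower against SNRPD2KO. The counts against SNRPD2KO rested on single libraries. Without PUS7KO replicate 2 they were 21 and 11, without SNRPD2KO replicate 1 they were 13 and 9, without SNRPD2KO replicate 2 they were 15 and 14, and without SNRPD2KO replicate 3 they were 1045 and 846.

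The stress transcription factor ATF3, the membrane-binding protein CPNE1 and PUS7 itself were the 3 genes, of the 203 called against both references, that kept both calls under all 22 alternative settings. ATF3 (ENSG00000162772.17) was higher, at 257, 235 and 269 CPM in PUS7KO, 189, 186 and 172 in Ctrl and 167, 161 and 182 in SNRPD2KO. All PUS7KO values lay above the other 6, with log2 differences of 0.47 (SE 0.08, adjusted p = 0.00016) and 0.58 (SE 0.08, adjusted p = 0.0057). CPNE1 was lower, at 27.8, 26.1 and 29.1 CPM in PUS7KO, 38.4, 41.3 and 40.6 in Ctrl and 40.99, 44.2 and 42.3 in SNRPD2KO, without overlap (-0.54, adjusted p = 0.00014, and -0.62, adjusted p = 0.0057). CPNE1 overlaps RBM12, an RNA-binding protein gene on the same strand that was higher than in Ctrl (0.65, adjusted p = 3e-06), so the split of reads between them is uncertain. EDIL3, a secreted integrin ligand, was the only other of the 203 that kept both calls with each of the 9 libraries left out in turn. It stood at 25.8, 33.3 and 27.7 CPM in PUS7KO, 23.05, 18.7 and 20.00 in Ctrl and 14.6, 15.1 and 17.8 in SNRPD2KO (0.49 and 0.87). ATF3, CPNE1 and EDIL3 were picked out after this stability had been computed.

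Of 12 stand-alone pseudouridine synthases, 3 were higher than in Ctrl and 3 lower, PUS7 among the latter, with a median log2 difference of 0.04. Both shares lay near the 25.6% and 23.8% of all genes. RPUSD3, a mitochondrial family member, was the most raised at 101, 87.8 and 111 CPM against 32.9, 34.5 and 34.4 in Ctrl, a log2 difference of 1.56 (adjusted p = 1.6e-08). In SNRPD2KO it stood at 113, 113 and 90.95 CPM. RPUSD1 was lower than in both references, with 8.6, 8.18 and 8.12 CPM in PUS7KO, 12.9, 14.5 and 15.2 in Ctrl and 13.3, 13.3 and 11.6 in SNRPD2KO (-0.77, adjusted p = 0.0002, and -0.61, adjusted p = 0.025). PUS3, which modifies the anticodon arm of tRNA, rose against Ctrl (0.47). PUS10 was lower (-0.52, adjusted p = 0.048), a call that was lost without any 1 library other than Ctrl replicate 2.

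PUS7L is a paralog of PUS7. It stood at 30.7, 40.1 and 30.8 CPM in PUS7KO and 29.8, 26.1 and 31.6 in Ctrl, which overlap (0.22, adjusted p = 0.19), but at 17.5, 15.6 and 21.6 in SNRPD2KO, lower than in any PUS7KO library (0.89, adjusted p = 0.0062). TRUB1, which modifies the T arm of tRNA and sites in mRNA, did the same (-0.15 and 0.63, adjusted p = 0.019). TRUB2 moved in opposite directions against the references, with 0.32 against Ctrl (adjusted p = 0.009) and -0.35 against SNRPD2KO (adjusted p = 0.039). PUS1 (-0.56) and RPUSD2 (-0.50) were lower than in SNRPD2KO and did not pass against Ctrl (-0.30 and 0.20). PUS7 and PUS7L kept their calls against SNRPD2KO with each library left out in turn. Those of TRUB1, TRUB2, PUS1, RPUSD1 and RPUSD2 were lost without PUS7KO replicate 2, SNRPD2KO replicate 1 or SNRPD2KO replicate 2.

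Of the 6 genes for the H/ACA particle and its assembly, 2 were higher than in Ctrl (33.3%, against 25.6% of all genes) and 3 lower (50.0%, against 23.8%). Against SNRPD2KO edgeR and DESeq2 called 0, with 1 lower at an unadjusted p under 0.05. DKC1, the catalytic subunit, stood at 91.4, 98.7 and 102 CPM against 67.2, 66.1 and 70.01 in Ctrl (0.52, adjusted p = 3.9e-05), and its partner GAR1 was also higher (0.41). The assembly factors SHQ1 (-0.53) and NAF1 (-0.36) were lower, the latter a call lost without any 1 of the libraries other than PUS7KO replicate 2 and SNRPD2KO replicate 3. NOP10, a small subunit, stood at 3.53, 2.34 and 3.23 CPM against 82.3, 3.08 and 3.41 in Ctrl, a call that Ctrl replicate 1 decided: without it the log2 difference was -0.11 in place of -3.30. Of the H/ACA guide RNAs tested, 2 of 80 were higher and 10 lower (median -0.09), shares below those of all genes.

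**Figure D2:**
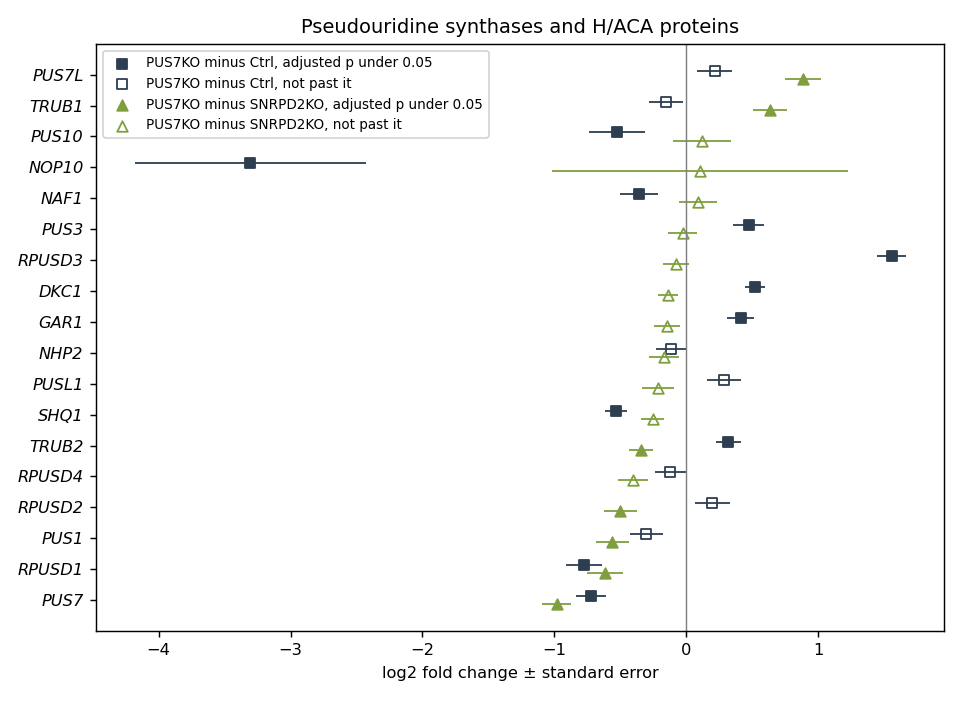
Log2 differences with SE of the 18 pseudouridine synthase and H/ACA genes, PUS7KO minus Ctrl and PUS7KO minus SNRPD2KO. PUS7 lies at -0.72 and -0.98, and RPUSD3 at 1.56 stands highest against Ctrl.

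Enzymes that place other tRNA modifications were counted because PUS7 acts on tRNA. Against Ctrl, 16 of 51 were higher and 11 lower (median 0.15), near the shares of all genes. QTRT1, a subunit of the queuosine transglycosylase, was higher at 25.1, 21.4 and 20.2 CPM against 8.79, 6.96 and 8.75 (1.44, adjusted p = 2.1e-06). TRMU, which thiolates mitochondrial tRNA, was lower at 11.9, 11.5 and 14.9 CPM against 30.1, 32.5 and 35.3 (-1.36, adjusted p = 2.7e-07). Neither passed against SNRPD2KO (-0.13 and -0.08). TRMT61A is the catalytic subunit of the enzyme that methylates an adenosine in the T loop of tRNA. It was lower than in both, at 10.1, 7.68 and 11.4 CPM in PUS7KO, 19.4, 20.8 and 23.6 in Ctrl and 18.8, 18.1 and 12.97 in SNRPD2KO (-1.13, adjusted p = 3.7e-05, and -0.77, adjusted p = 0.024). TRMT61A kept both calls in 5 of the 9 fits without 1 library, and did not keep both with the GC trend removed.

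The largest rises against Ctrl included secreted factors and amino acid and folate enzymes. INHBE, which encodes a subunit of the ligand activin E, stood at 59.2, 54.1 and 55.99 CPM in PUS7KO and at 2.89, 2.63 and 2.39 in Ctrl, 4.41 higher on the log2 scale (SE 0.15, adjusted p = 1.4e-11). No PUS7KO value came near the Ctrl range, but SNRPD2KO stood at 59.1, 53.7 and 44.1 CPM. G0S2, an inhibitor of the lipase that opens lipid droplets, stood at 45.3, 45.7 and 56.2 CPM against 3.97, 2.74 and 0.796 (4.27, SE 0.25, adjusted p = 3.2e-09) and was also above SNRPD2KO, at 23.8, 29.1 and 31.4 (0.80, adjusted p = 0.026). FUT1, a fucosyltransferase of blood group antigens, stood at 18.3, 14.1 and 18.1 CPM against 1.82, 1.03 and 1.14 (3.64), and the AT-hook protein gene AKNA at 46.04, 40.6 and 43.2 against 5.57, 5.25 and 4.55 (3.07). ASS1, which makes argininosuccinate in arginine synthesis, stood at 176, 158 and 179.7 CPM against 25.6, 24.2 and 16.4 (2.95, SE 0.13, adjusted p = 1.6e-10). CALCB, a calcitonin gene-related peptide, stood at 71.7, 68.04 and 82.4 CPM against 15.97, 10.3 and 11.5 (2.55) and passed against SNRPD2KO too (0.53). G0S2 and CALCB kept both calls in 5 and 4 of the 9 fits without 1 library. INHBE, FUT1, AKNA and ASS1 did not pass against SNRPD2KO (between 0.11 for INHBE and 0.18 for AKNA).

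Further large rises were SLC7A3, a cationic amino acid transporter (2.54), TRIB3, a pseudokinase that dampens ATF4 (2.5), ALDH1L2, a mitochondrial folate enzyme (2.5), and TWF2-DT, a divergent transcript (2.5). PCK2, the mitochondrial PEP carboxykinase, varied within PUS7KO at 4.49, 20.04 and 9.89 CPM (2.95, or 2.27 without PUS7KO replicate 2). MZT2B was high in PUS7KO replicate 2 alone, at 1.53, 15.1 and 1.98 CPM, and lost its call without it.

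The largest falls were genes at low levels in PUS7KO. CMYA5, a muscle-associated protein gene, stood at 2.48, 2.76 and 1.98 CPM against 26.6, 28.3 and 35.2 in Ctrl (-3.62, SE 0.18, adjusted p = 9.6e-10). FAM20A, a Golgi pseudokinase of enamel formation, stood at 0.669, 0.918 and 0.624 CPM against 9.97, 7.54 and 9.21 (-3.56), and the conjugate export pump ABCC2 at 0.287, 0.751 and 0.624 against 6.54, 5.25 and 7.27 (-3.48). Lack of overlap with Ctrl was a condition for naming these 3 genes, and they did not pass against SNRPD2KO. NPR3, the clearance receptor for natriuretic peptides, stood at 0.382, 0 and 0.312 CPM against 9.76, 11.5 and 11.4, and TRIM72, a membrane-repair protein gene, at 0.0955, 0 and 0.104 against 3.64, 4.68 and 7.84. Both genes and CPA4, a carboxypeptidase gene, had a PUS7KO library without a count. The upper limit that such a 0 allows is 3 counts, or 0.268 to 0.299 CPM in single PUS7KO libraries, and no fold is given for these 3 genes. CFAP45 (-4.01), CD200R1 (-3.55), ADAMTSL4 (-3.46) and NDUFB9 (-3.28) were under 1 CPM in every PUS7KO library.

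**Figure D3:**
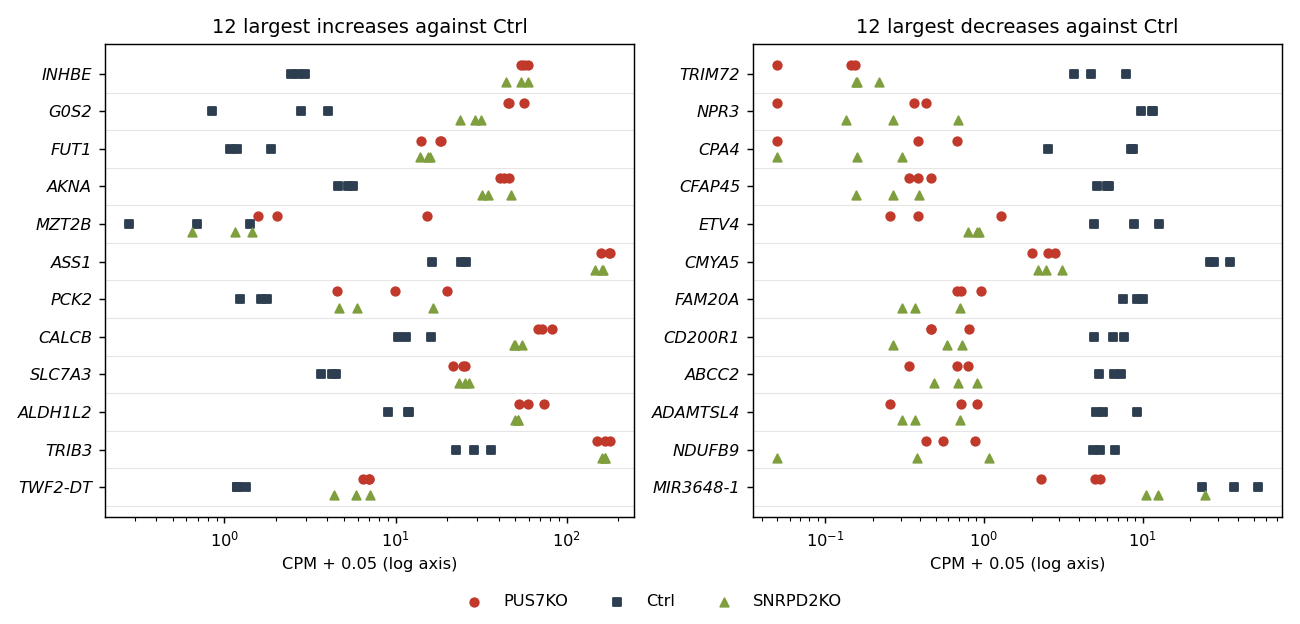
CPM plus 0.05 on a log axis in each library (1 point per library) for the 12 genes with the largest difference from Ctrl in each direction. For INHBE the SNRPD2KO points (52.3 ± 7.60 CPM, SD, n = 3) lie beside those of PUS7KO (56.4 ± 2.59), whereas for G0S2 they lie between PUS7KO and Ctrl.

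Genes of the integrated stress response were mostly higher than in Ctrl. Of 21 regulators, 14 were higher and 3 lower (median 0.47), against 25.6% and 23.8% of all genes. All 8 transcription factors of the list were higher (median 0.67). ATF4 itself stood at 658, 623 and 666 CPM against 489.9, 490.1 and 433 (0.46, adjusted p = 0.00023), with no overlap. Its partner CEBPG stood at 68.8, 80.4 and 66.2 CPM against 29.1, 36.6 and 28.3 (1.20) and was also above the 47.3, 42.5 and 57.5 CPM of SNRPD2KO (0.55, adjusted p = 0.024), a call lost without PUS7KO replicate 2 or SNRPD2KO replicate 1 or 2. CEBPB (1.35) and DDIT3 (0.54), which encodes CHOP, were higher as well. Among the eIF2 kinases and phosphatase arms, 2 of 8 were higher and 3 lower.

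Of the feedback and growth brakes, 4 of 5 were higher. CHAC1, which degrades glutathione, stood at 32.7, 32.6 and 37.4 CPM against 8.25, 7.99 and 10.3 (1.95), TRIB3 at 178, 151 and 167 against 36.02, 28.8 and 22.6, and DDIT4, an inhibitor of mTORC1, was 1.44 higher. The secreted stress ligands were split: VEGFA (0.78), STC2 (0.64) and ADM2 (1.11) rose with INHBE, whereas GDF15 fell, from 51.9, 49.7 and 59.9 CPM in Ctrl to 24.8, 19.03 and 20.8 (-1.32, adjusted p = 3.4e-07). GDF15 is also a p53 target. It did not pass against SNRPD2KO (0.34). Against SNRPD2KO, 2 of the regulators passed, CEBPG and ATF3, both higher.

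Enzymes of serine and folate metabolism rose in 10 of 13 cases (76.9%, against 25.6% of all genes) and fell in 1 (7.69%, against 23.8%), with a median of 0.88. SHMT2, the mitochondrial serine hydroxymethyltransferase, stood at 472, 408 and 474 CPM against 113, 106 and 98.6 (2.09, SE 0.09, adjusted p = 1.7e-10). The serine synthesis genes PSAT1 (1.62) and PHGDH (1.17) were higher too. Of the amino acid synthesis enzymes, 12 of 18 were higher (66.7%, against 25.6%) and 4 lower (22.2%, against 23.8%), with a median of 0.94. They were led after ASS1 and PCK2 by CTH, which makes cysteine (2.18), and PYCR1, which makes proline (1.87). ASNS, the asparagine synthetase, was higher at the low level of 3.63, 3.51 and 3.64 CPM against 1.72, 1.03 and 1.36 (1.38, adjusted p = 0.00059).

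Amino acid transporters rose in 11 of 17 cases (64.7%, against 25.6% of all genes) and fell in 3 (17.6%, against 23.8%), with a median of 0.64. SLC7A11, the cystine importer, stood at 71.2, 82.7 and 65.98 CPM against 15.97, 17.1 and 27.7 (1.86) and also passed against SNRPD2KO (0.69, adjusted p = 0.025), though not without PUS7KO replicate 1 or 2 or SNRPD2KO replicate 1 or 2. Of 19 cytosolic aminoacyl-tRNA synthetases, 15 were higher (78.9%) and 1 lower (5.26%), with a median of 0.85. Of 15 mitochondrial ones 6 were higher (40.0%) and 3 lower (20.0%), with a median of 0.09. QARS1 (1.57) and MARS1 (1.31), which charge glutamine and methionine tRNA, were among those that rose. The difference between the cytosolic and mitochondrial sets was not tested. In the 5 metabolic and stress lists of these paragraphs, medians against SNRPD2KO lay between -0.10 and 0.08.

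The DNA element TGATGCAA, a composite site known to be bound by C/EBP and ATF factors, was searched on both strands in the 250 bases before RefSeq transcript starts (GRCh38.p14) because these lists moved together. The starts matched 11070 of 15863 gene symbols. It stood before 11 of 123 starts of the stress, amino acid and synthetase lists (8.94%), against 0.476% of the starts of all tested genes. The lists were put together by known roles and with earlier results of these data known. The contrast therefore describes them and is not a test. Among tested genes, 0.838% of starts held it where the gene was higher than in Ctrl, 0.368% where it was lower and 0.327% where it was not called. Over 2-fold the shares were 1.37% for higher genes and 0.644% for lower ones. Of the 37 starts of higher genes that held it, 9 belonged to the stress, amino acid and synthetase lists. A match is a description of the letters and not a shown binding site. Of all 123 starts of these lists, 86 belong to genes higher than in Ctrl, as do 9 of the 11 with the element. The 11 starts belong to 10 genes, of which 8 were higher than in Ctrl and 2 lower. The following stretches of 7 of them are shown as examples, written 5′ to 3′ on the gene's strand with the element or its reverse complement in capitals.
CHAC1, chr15:40953251-40953280, plus strand: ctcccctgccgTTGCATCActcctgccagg
CEBPG, chr19:33374060-33374089, plus strand: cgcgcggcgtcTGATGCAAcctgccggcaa
AARS1, chr16:70289675-70289704, minus strand: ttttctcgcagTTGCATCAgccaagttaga
MTHFD1L, chr6:150866346-150866375, plus strand: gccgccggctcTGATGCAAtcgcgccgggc
SLC1A5, chr19:46784893-46784922, minus strand: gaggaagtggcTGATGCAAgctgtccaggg
GOT1, chr10:99430804-99430833, minus strand: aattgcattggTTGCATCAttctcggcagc
SLC1A3, chr5:36596357-36596386, plus strand: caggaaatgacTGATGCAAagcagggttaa

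The first 6 of these genes were higher than in Ctrl. AARS1, the alanyl-tRNA synthetase, rose by 1.11 and MTHFD1L, a mitochondrial folate enzyme, by 0.99. SLC1A5, a neutral amino acid transporter, rose by 0.88, and GOT1, the cytosolic aspartate aminotransferase, by 0.83. SLC1A3, a glutamate and aspartate transporter, held the same element and was lower (-0.90, adjusted p = 3.3e-05). Of the 3 genes not shown, PPP1R15B, a phosphatase subunit that reverses the stress response, was also lower (-0.39, adjusted p = 0.0052), and the isoleucyl-tRNA synthetase IARS1 (1.85) and the transcription factor JDP2 (0.46) were higher. AARS1, MTHFD1L, SLC1A5, GOT1, CHAC1 and SLC1A3 did not pass against SNRPD2KO (between -0.19 for SLC1A5 and 0.05 for SLC1A3), and CEBPG did.

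Feedback genes of ERK signalling and the ETS factors downstream of it were lower than in Ctrl. Of 17 tested, 14 were lower by edgeR (82.4%, against 23.8% of all genes) and 0 higher (against 25.6%). Also 0 were higher at an unadjusted p under 0.05 and by DESeq2 (median -0.99). ETV5 stood at 3.72, 2.00 and 2.19 CPM against 23.5, 25.1 and 19.1 (-3.10, SE 0.24, adjusted p = 4.5e-08). ETV4 stood at 1.24, 0.334 and 0.208 CPM against 12.6, 8.79 and 4.89 (-3.86, or -4.91 without PUS7KO replicate 1, the library with the highest PUS7KO value), and ETV1 was lower too (-2.39). The feedback inhibitors SPRED2 (-1.39), which blocks RAF activation, and DUSP5 (-1.38), a nuclear ERK phosphatase, fell, as did SPRY2 (-0.99). ETS1, SPRY1 and PHLDA1 did not pass. Against SNRPD2KO edgeR called 0 of the list and DESeq2 1 higher, while at an unadjusted p under 0.05 there were 3 higher and 1 lower (median 0.13).

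Targets of p53 were lower in 16 of 26 cases (61.5%, against 23.8% of all genes) and higher in 5 (19.2%, against 25.6%). Their median was -0.58, and -0.02 against SNRPD2KO. HEK293T carries the large T antigen, which binds p53. The fall held for 10 of 11 cell cycle and feedback genes, with MDM2, the ubiquitin ligase of p53, at 66.2, 82.6 and 61.6 CPM against 137, 145 and 177 (-1.12) and CDKN1A, the inhibitor p21, at 49.3, 46.3 and 58.1 against 79.5, 72.8 and 73.3 (-0.56). Of the death and metabolism genes, 6 of 15 were lower (40.0%), led by PHLDA3 (-1.52) and TIGAR (-1.49), and 5 higher (33.3%). PMAIP1, the death protein NOXA, was higher than in both references, at 89.5, 95.7 and 94.1 CPM in PUS7KO, 73.97, 67.1 and 60.9 in Ctrl and 57.3, 58.7 and 68.3 in SNRPD2KO (0.47 and 0.60); without SNRPD2KO replicate 1 or 2 the latter did not pass. Of 16 YAP and TEAD genes, 7 were lower (43.8%, against 23.8% of all genes) and 2 higher (12.5%, against 25.6%). Their median was -0.29, and 0.03 against SNRPD2KO. The matricellular CCN2 stood at 5.92, 5.93 and 5.31 CPM against 24.1, 20.4 and 26.9 (-2.05).

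Splicing regulators of the SR family and their RS-domain partners were lower. Of 30 tested, 25 fell (83.3%, against 23.8% of all genes) and 1 rose (3.33%, against 25.6%), with a median of -0.63. SRSF6 stood at 34.8, 42.8 and 33.6 CPM against 109, 119 and 117 (-1.63, SE 0.10, adjusted p = 3.2e-09), and SRSF1, which defines exons through purine-rich enhancers, at 72.7, 61.03 and 59.9 against 153, 153 and 168 (-1.29). LUC7L3, a partner of the U1 particle (-1.55), and TRA2A (-1.46) were lower, while the kinase SRPK1 was the 1 member that rose (0.81). The other 4 kinases tested were lower. Against SNRPD2KO 2 of the list were higher and 0 lower, by edgeR and by DESeq2, with 7 higher and 3 lower at an unadjusted p under 0.05. Proteins of the small nuclear ribonucleoproteins fell in 19 of 46 cases (41.3%, against 23.8% of all genes) and rose in 10 (21.7%, against 25.6%). Their median was -0.05, and -0.13 against SNRPD2KO. Splicing itself was not measured, because the table holds 1 count per gene.

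Nonsense-mediated decay removes transcripts with premature stop codons. Its factors and those of the exon junction complex fell in 12 of 16 cases (75.0%, against 23.8% of all genes). By edgeR, by DESeq2 and at an unadjusted p under 0.05, 12 were lower and 0 higher. Their median was -0.36, and -0.07 against SNRPD2KO. SMG8, a subunit of the kinase complex that phosphorylates UPF1, stood at 53.2, 50.5 and 51.6 CPM in PUS7KO, 94.7, 95.2 and 101 in Ctrl and 64.3, 66.3 and 61.7 in SNRPD2KO (-0.90, adjusted p = 1.3e-07, and -0.31, adjusted p = 0.035). SMG8 kept both calls in 3 of the 9 fits without 1 library, and did not keep both with the GC trend removed. The kinase SMG1 passed against Ctrl (-0.79) and not against SNRPD2KO (0.22). EIF4A3, the helicase core of the exon junction complex, varied within each group, at 12.03, 3.67 and 21.8 CPM in PUS7KO, 70.9, 35.2 and 79.1 in Ctrl and 30.04, 21.01 and 61.9 in SNRPD2KO. It was lower than in Ctrl (-2.34, or -2.98 without PUS7KO replicate 3) and than in SNRPD2KO (-1.64, adjusted p = 0.046), and both calls were kept in 3 of the 9 fits without 1 library.

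Among spliceosomal RNAs, counts of the annotated U1 genes went both ways, although reads of identical copies cannot be assigned with certainty. Of 38 small nuclear RNA genes tested, 4 were higher than in Ctrl (10.5%, against 25.6% of all genes) and 23 lower (60.5%, against 23.8%). Their median was -0.96, and -0.35 against SNRPD2KO. RNVU1-18 is named as a variant U1 gene (chromosome 1, 143729407 to 143729570, minus strand). It stood at 34.8, 30.6 and 31.6 CPM in PUS7KO, 63.03, 56.2 and 96.1 in Ctrl and 64.1, 59.8 and 41.6 in SNRPD2KO. These counts were lower than in both (-1.15, adjusted p = 5.2e-05, and -0.77, adjusted p = 0.027). RNVU1-8 was also lower than in both (-0.95 and -0.61). RNVU1-18 and RNVU1-8 kept both calls in 5 and 4 of the 9 fits without 1 library, and did not keep both with the GC trend removed. RNU1-1, a standard U1 gene (chromosome 1, 16514122 to 16514285, minus strand), stood at 192, 162 and 266 CPM against 180.4, 95.3 and 114 in Ctrl, which overlap (0.67, adjusted p = 0.0072, a call that DESeq2 did not make). The U4 genes RNU4-1 (0.87) and RNU4-2 (0.78) were higher. RNU1-1 and RNVU1-18 are annotated with 1 identical sequence of 164 bases, shown because it means that reads cannot be assigned to either gene with certainty. The capitals mark bases 3 to 11, which pair with 5′ splice sites.
RNU1-1 and RNVU1-18: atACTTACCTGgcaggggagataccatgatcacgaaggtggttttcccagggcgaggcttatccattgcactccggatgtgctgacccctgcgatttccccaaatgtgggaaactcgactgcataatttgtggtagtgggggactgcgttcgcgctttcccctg

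In all, 8 annotated small nuclear RNA genes held this sequence, 7 of them tested. Of the tested copies, RNU1-1 and RNU1-4 (0.64) were called higher than in Ctrl. RNVU1-18, RNVU1-29 (-1.21) and RNU1-28P (-1.40) were called lower, and RNU1-3 (0.26) and RNU1-27P (-0.61) did not pass. The U1 values are therefore uncertain gene by gene. The C/D guide RNAs, which direct ribose methylation, fell in 24 of 88 cases (27.3%, near the 23.8% of all genes) and rose in 6 (6.82% against 25.6%, median -0.29). SNORD69 stood at 0.573, 0.835 and 1.25 CPM against 5.36, 4.57 and 4.66 (-2.46) and SNORD70 at 1.05, 1.00 and 2.19 against 5.36, 4.22 and 5.68 (-1.87). Of the Cajal body RNAs, 1 of 13 was higher and 2 lower. Small RNAs share sequence with copies elsewhere and lie within host genes, so their counts are less certain than those of messenger RNAs.

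**Figure D4:**
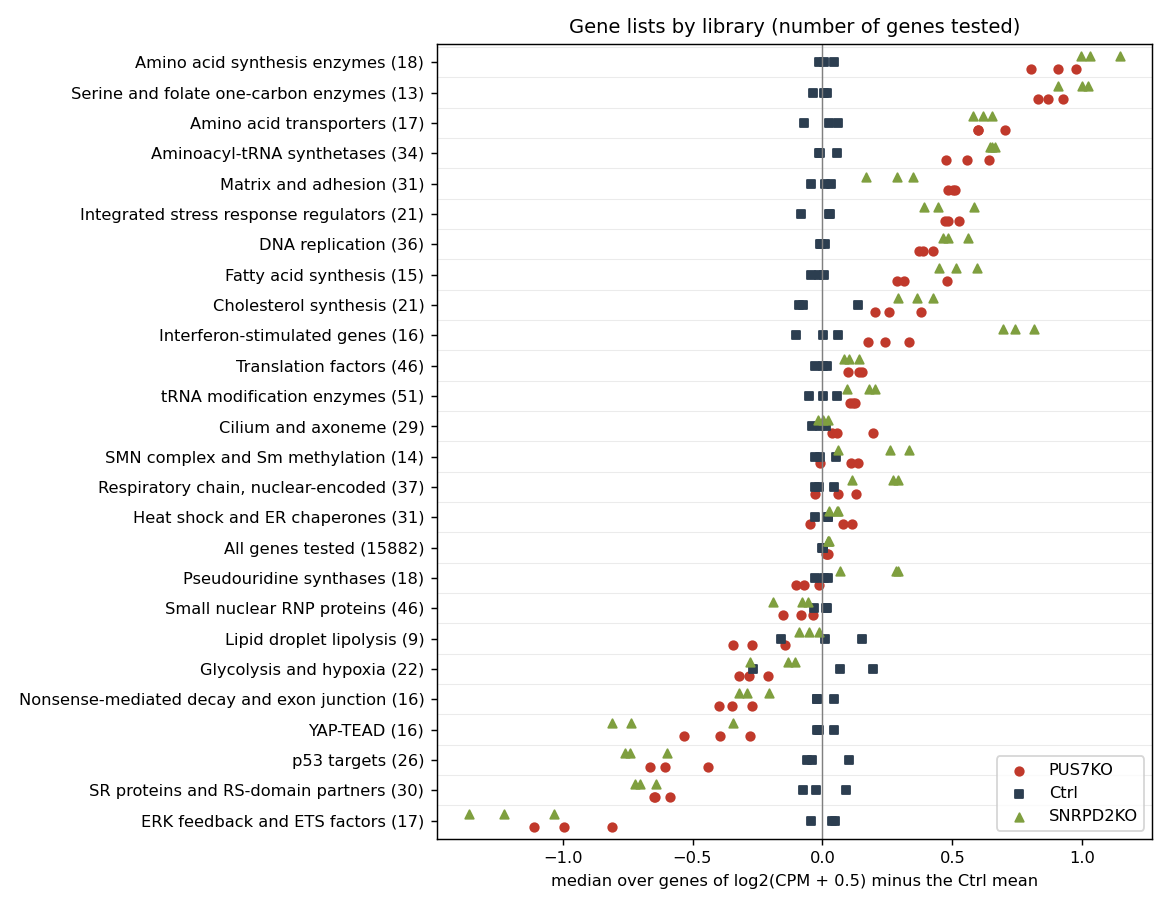
Median over the genes of each list of log2(CPM + 0.5) minus the Ctrl mean, 1 point per library, with the number of genes tested in brackets. PUS7KO and SNRPD2KO points lie on the same side of Ctrl for the lists at either end, and matrix and interferon genes are among those where the PUS7KO and SNRPD2KO points do not overlap.

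Genes of DNA replication were higher than in Ctrl in 27 of 36 cases (75.0%, against 25.6% of all genes). They were lower in 1 (2.78%, against 23.8%), with a median of 0.42. POLD2, a subunit of polymerase delta, stood at 175, 159.6 and 193 CPM against 74.2, 56.2 and 68.2 (1.41), and MCM7, a subunit of the replicative helicase, at 611, 539.6 and 609.5 against 282, 268 and 267 (1.11, adjusted p = 6.8e-08). RRM2, a subunit of ribonucleotide reductase (1.23), and the transcription factor E2F1 (1.09) were higher as well, and ORC6 was the member that fell (-0.46). Against SNRPD2KO 2 were lower and 0 higher by edgeR, with 1 higher at an unadjusted p under 0.05 and 0 by DESeq2. Cell division genes named after their values were seen went both ways against both references. PLK1, a mitotic kinase, stood at 48.8, 43.3 and 48.3 CPM in PUS7KO, 63.1, 64.5 and 63.6 in Ctrl and 68.1, 66.4 and 63.1 in SNRPD2KO (-0.45 and -0.49). CDC20, which activates the anaphase-promoting complex, gave -0.42 and -0.49, and cyclin B1 (CCNB1) -0.56 and -0.38. The spindle protein gene HMMR (0.54 and 0.65) and the kinetochore gene SKA2 (0.48 and 0.41) were higher than in both. For each of these 5 genes both calls were kept in 5 to 7 of the 9 fits without 1 library, and HMMR and SKA2 lost theirs against SNRPD2KO with the GC trend removed.

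Chaperones were counted by compartment. In the endoplasmic reticulum 12 of 18 genes were higher (66.7%) and 2 lower (11.1%), with a median of 0.37. In the cytosol 1 of 13 was higher (7.69%) and 7 lower (53.8%), with a median of -0.44. Of all genes 25.6% were higher and 23.8% lower. Against SNRPD2KO the medians were 0.01 in the endoplasmic reticulum and -0.07 in the cytosol. XBP1, a transcription factor of the unfolded protein response, stood at 216, 208 and 219.6 CPM against 84.9, 79.8 and 85.3 (1.36, adjusted p = 2e-09), and MANF (0.77) and HERPUD1 (0.79) were higher. The cytosolic HSPH1 was lower at 61.3, 73.8 and 63.6 CPM against 129.8, 135 and 138 (-1.02). No test of the difference between the compartments was run.

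Matrix genes were higher in 14 of 20 cases (70.0%, against 25.6% of all genes) and lower in 0 (against 23.8%). Their median was 0.63, and 0.16 against SNRPD2KO. The laminin chains LAMB2, at 65.1, 62.9 and 73.9 CPM against 20.3, 21.01 and 20.00 (1.72), and LAMA1 (1.39) led, followed by COL6A2 (1.24). Of the 6 fibroblast markers given above, the 2 that could be tested were also higher than in Ctrl. They did not pass against SNRPD2KO, and their part in the matrix values was not tested. ITGAV, an integrin chain, stood at 32.4, 35.8 and 32.6 CPM in PUS7KO, lower than the 80.9, 74.7 and 69.9 of Ctrl (-1.16) and higher than the 18.3, 16.2 and 23.5 of SNRPD2KO (0.79, adjusted p = 0.0062), and the latter call held with each library left out in turn. In metabolism, 9 of 15 fatty acid synthesis genes were higher (60.0%, against 25.6% of all genes). By edgeR and by DESeq2 0 were lower, with 1 lower at an unadjusted p under 0.05. The median of these genes was 0.33, and 0.06 against SNRPD2KO. Glycolysis and hypoxia genes fell in 10 of 22 cases (45.5%, against 23.8% of all genes) and rose in 4 (18.2%, against 25.6%). Their median was -0.35, and -0.18 against SNRPD2KO. The glucose transporter SLC2A3 stood at 41.8, 35.2 and 40.6 CPM against 159, 138 and 65.6 (-1.63), where Ctrl replicate 3 lay well below the other Ctrl libraries.

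The genes that stood apart from both references were fewer and less stable. Among those higher, OSTN, a secreted peptide of bone and muscle, stood at 16.3, 22.4 and 15.1 CPM in PUS7KO, 6.43, 3.54 and 6.48 in Ctrl and 5.36, 7.59 and 10.7 in SNRPD2KO (1.71 and 1.17). PTX3, a secreted pentraxin, stood at 10.4, 7.76 and 10.6 CPM, 3.22, 4.0 and 2.05 and 3.54, 4.95 and 5.29 in the same order (1.63 and 1.05). The tetraspanin TSPAN2 (1.44 and 1.07), the matrix protein NPNT (1.03 and 0.82) and the zinc finger gene ZNF711 (0.99 and 0.81) were also higher than in both. OSTN, PTX3, TSPAN2, NPNT and ZNF711 kept both calls in 6, 5, 1, 4 and 6 of the 9 fits without 1 library. With the GC trend removed PTX3 and ZNF711 kept both calls, and OSTN, TSPAN2 and NPNT did not. RHOB, a small GTPase named after its values were seen, stood at 237, 219 and 287 CPM in PUS7KO, 56.5, 50.1 and 41.8 in Ctrl and 138, 129 and 184 in SNRPD2KO (2.32, adjusted p = 5.3e-09, and 0.72, adjusted p = 0.013).

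Among those lower, the microRNA gene MIR3648-1 moved most, at 5.35, 2.25 and 5.00 CPM in PUS7KO, 23.7, 37.7 and 53.5 in Ctrl and 24.6, 12.4 and 10.4 in SNRPD2KO (-3.21, adjusted p = 1.7e-06, and -1.92, adjusted p = 0.016). It has a near-identical copy elsewhere, so its counts are uncertain. PCYT2, an enzyme of phosphatidylethanolamine synthesis (-0.87 and -0.73), ACAA1, a peroxisomal thiolase (-0.64 and -0.70), and LANCL2 (-0.87 and -0.63) were lower than in both. HOXB-AS3, an antisense transcript, was lower as well (-1.24 and -0.65). PCYT2, ACAA1, LANCL2 and HOXB-AS3 kept both calls in 4, 4, 5 and 4 of the 9 fits without 1 library, and did not keep both with the GC trend removed. The kit keeps strand, but whether counting used it is not given in the sources used here, so antisense and divergent genes are uncertain. Of 28 interferon-stimulated genes listed, 16 could be tested. Against SNRPD2KO 3 of them passed, all lower (median -0.42), where 1.57% of all genes were lower. The counts against SNRPD2KO rested on single libraries, as given above. Against Ctrl the list was split, with 5 higher (31.25%, against 25.6% of all genes) and 3 lower (18.75%, against 23.8%). The 117 and 86 genes became 5 and 3 without PUS7KO replicate 2, 2 and 2 without SNRPD2KO replicate 1, 3 and 3 without SNRPD2KO replicate 2, and 239 and 254 without SNRPD2KO replicate 3.

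Calls ran with the GC content of the transcript, known for 97.0% of tested genes, and in opposite senses against the references. Over 5 bins of protein-coding genes by GC content, the lowest held 15.1% higher than in Ctrl and 36.3% lower (median -0.17), and the highest 34.6% and 15.8% (median 0.20). Against SNRPD2KO the lowest bin held 386 higher genes and 1 lower (median 0.26), and the highest bin 2 higher and 109 lower (median -0.19). The median GC content was 37.8% for genes higher than in SNRPD2KO, 57.6% for genes lower, and 47.9% over all protein-coding genes. With a GC trend removed from each library, 59 genes were higher and 59 lower than in SNRPD2KO, in place of 509 and 249, while 3914 were higher and 4101 lower than in Ctrl. Of the 203 genes called against both references, 20 higher and 10 lower ones remained after that step, and PUS7 gave -0.67 against Ctrl.

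**Figure D5:**
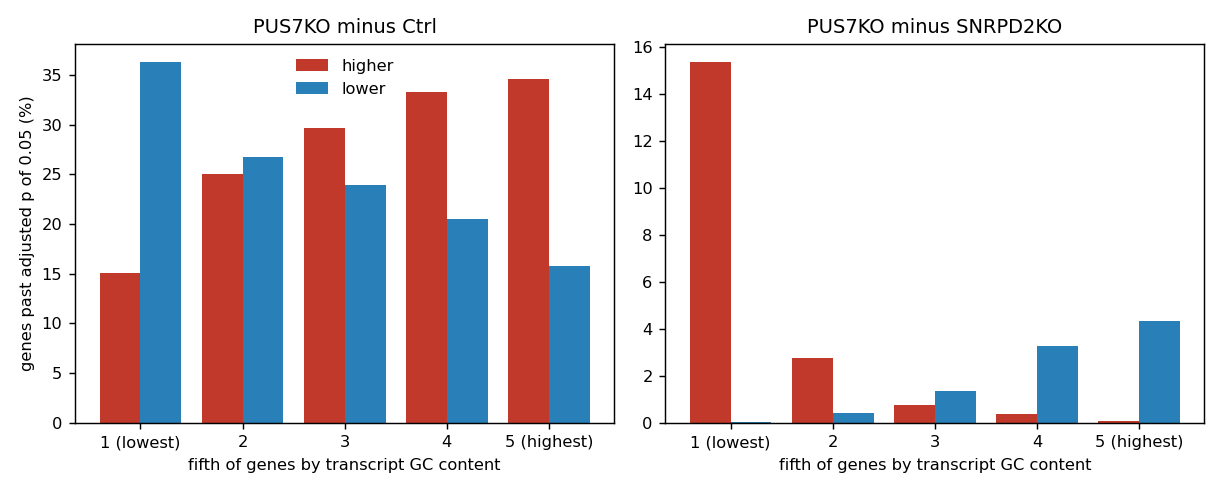
Share of protein-coding genes past the threshold, higher or lower in PUS7KO, by bin of transcript GC content (5 bins of nearly equal size), against Ctrl and, on a separate scale, against SNRPD2KO. Higher calls rise with GC content against Ctrl, from 15.1% to 34.6%, and fall with it against SNRPD2KO.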

How the data were processed

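Total RNA from HEK293T cells was extracted with TRIzol, depleted of ribosomal RNA, made into stranded Illumina libraries and sequenced on a HiSeq2000, per the labels' protocols. What the authors deposited for HEK293T is a raw count for each gene and library, and every value here derives from it. The submitters' processing notes name cutadapt 4.2, HISAT2 2.2.1, RSEM and the build hg38; their roles and the gene annotation release are not given in the sources used here. The second table of the series, of HuCCT1 cells, was not used.

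All 9 HEK293T libraries were fitted together in R 4.3.3 with edgeR 4.0.16 (TMM factors, default low-count filter with a minimum count of 10 and a minimum total of 15, quasi-likelihood F test), which share 1 estimate of the spread, a biological coefficient of variation of 10.8%. Of 62703 genes, 22008 had no count and 15882 were tested. The test was two-sided, with Benjamini-Hochberg adjustment over all genes tested and a threshold of 0.05. CPM of genes are scaled by the TMM factors, and fold changes are PUS7KO minus the reference. The marker sums and the CPM limits for a count of 0 are scaled for library size only. The floor of 3 counts covers counting error only. The code was tested on simulated counts.

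Named genes were PUS7, SNRPD2, the 12 largest changes per direction against Ctrl and the 10 per direction called against both references (each called, at least 5 CPM in the higher group, no overlap between groups, a proper symbol), up to 5 members per list, all synthase genes and up to 5 small nucleolar RNAs. Some of these were left out. ATF3, CPNE1, RBM12, EDIL3, RHOB, PLK1, CDC20, CCNB1, HMMR, SKA2, PMAIP1, ITGAV as seen against SNRPD2KO, the U1 and U4 genes other than RNVU1-18 and RNVU1-8, the genes with promoter matches, and those list members beyond the 5 largest were named after their values were seen. The lists and rules were chosen with earlier results of these data known. Alternatives were other normalizations, filters, tests (limma voom 3.58.1, DESeq2 1.42.0), thinning, GC correction, a replicate block and each library left out. Sequences come from RefSeq promoters and GENCODE 29 transcripts.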

Additional observations from a re-analysis of the deposited data

How the results depend on the processing

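The counts against Ctrl stayed within 1.5 times of 4063 higher and 3776 lower under every alternative, from 3641 to 4313 higher and from 3368 to 4073 lower with each library left out. The counts against SNRPD2KO (509 and 249) and against both references (117 and 86) did not. Without a low-count filter they were 889, 403 and, higher than in both, 238, and that setting moved the median of all genes against Ctrl to -0.14. DESeq2 gave 374 genes lower than in SNRPD2KO and 133 lower than in both, and fits of only the 2 groups compared gave 122 and 44. An adjusted p under 0.01 left 21, 10, 3 and 3, and removing the GC trend left 59, 59, 28 and 26. With the replicate block the 4 counts were 391, 169, 79 and 58, those against Ctrl 3973 and 3701, and PUS7 gave -0.73; with the block and the GC trend removed they were 15, 12, 8 and 6. With each library left out they ranged from 13 to 1045, 9 to 846, 2 to 239 and 2 to 254, and the PUS7 difference from Ctrl from -0.81 to -0.60. Equal replicate numbers did not pair the libraries: deviations from the group means correlated at -0.086 to 0.044 between libraries of 1 number, and 1 of 9 libraries correlated best with its own number. No called difference of a named gene changed sign. The median of all genes against Ctrl, 0.01, turned to -0.01 with RLE factors or DESeq2 and to -0.02 with the GC trend removed, and the balance of higher and lower calls against Ctrl turned to 3881 and 3945, 3507 and 3615, and 3914 and 4101. A count of 0 in a single library allows a level of up to 0.266 to 0.378 CPM.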

Other observations

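Classes of noncoding genes differed in their calls against Ctrl. Of 174 small nucleolar RNA genes, 9 were higher (5.17%, against 25.6% of all genes) and 38 lower (21.8%, against 23.8%), with a median log2 difference of -0.24. Of 21 microRNA genes 2 were higher (9.52%) and 11 lower (52.4%), with a median of -0.65. Long noncoding RNA genes were called higher in 481 and lower in 437 of 2256 cases (median 0.08), near the balance of protein-coding genes, with 3465 and 3107 of 12583 (median 0.02).

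The sequence that PUS7 is known to favour in RNA, a uridine, any base, the target uridine, an adenosine and a purine, was counted in each transcript as TNTAA or TNTAG. In the fifth of protein-coding genes with the most such sites per kilobase, 17.4% were higher than in Ctrl and 34.6% lower. In the fifth with the fewest, 35.4% were higher and 16.0% lower. Against SNRPD2KO the order was the opposite: the fifth with the most sites held 342 higher and 3 lower genes (median 0.23), and the fifth with the fewest 5 higher and 121 lower (median -0.18). The site is rich in A and T, its density runs with GC content, and the parts of the 2 properties cannot be told apart here. Genes lower than in Ctrl had a median of 8.36 sites per kilobase and a median GC content of 45.0%, and genes higher had 5.52 sites and 51.0%.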
